A study of Mus musculus with 118 samples.

Results

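Nicotinic acetylcholine receptor subunits and 2 proteins that modulate these receptors were followed in single SOM+ interneurons of mouse cortex. The 8 genes were Chrna2, Chrna3, Chrna4, Chrna5 and Chrna7, which encode α subunits, Chrnb2, which encodes a β subunit, and Lypd6 and Lynx1, which encode small proteins of the Ly6 family. They are 8 of the 23998 gene symbols of the count table. All 8 were found in the table. They were chosen for their role at the nicotinic receptor and selected on their measured log2 levels and detection in L5 against L4 cells of this data set, so the layer values below are a description and carry no test.

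Nicotinic receptors are pentameric channels that open when acetylcholine binds and let cations into the cell. In cortex, acetylcholine comes mainly from basal forebrain fibres, receptors built from α4 and β2 subunits or from α7 subunits alone are the common forms, and α5 joins some α4β2 receptors as an accessory subunit. Ly6 proteins share a 3-finger fold with snake toxins that bind the same receptors, and both Lynx1 and Lypd6 are held at the membrane by a lipid anchor. Chrna2 is known in rodents as a marker of a class of deep-layer SOM+ Martinotti cells.

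RNA was collected by Patch-seq, in which the cytosol of a cell is drawn into the patch pipette after its electrical recording and made into cDNA. The cells came from adult male and female SOM-Cre/Ai9 mice, in which tdTomato marks cells that express somatostatin or did so earlier in life, so the red marker alone does not show that a cell makes somatostatin at the time of recording. All groups share this genotype and no treatment was given. By their labels the cells lay in layer 4 (L4) or layer 5 (L5) of the primary visual cortex (V1) or the primary somatosensory cortex (S1), and 42 of 44 V1 L4 cells, 34 of 39 S1 L4 cells, 17 of 19 V1 L5 cells and 16 of 16 S1 L5 cells were kept.

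A kept cell had at least 1500 genes with a read, no more Slc17a7 reads than Gad1 plus Gad2 reads and at least 1 Sst read. The kept cell nearest to the first limit had 1978 such genes and the nearest cell below it 1153, and the lowest Sst count in a kept cell was 22. Total counts ranged from 97904 to 3295232 per cell, with group medians between 1015272.5 and 1199868.5, and the mean number of genes with a read ran from 6272 (V1 L5) to 6952 (S1 L5). Levels are given as log2(CPM + 1), where CPM is the read count of a gene per 1000000 counts in that cell. The labels name no animal, and there are more label dates (9) than mice in the study's methods, so the cells of an area and layer count as 1 sample and no test over cells was made. The spread of a difference is the SD of its values within label dates that had at least 2 cells on each side. The difference itself is over all cells, so it can lie apart from the mean within dates. Dates may share a mouse, and a difference of at least 1 on the log2 scale was taken as the size worth naming. L5 was recorded on dates of the first series alone, so layers were compared within that series, 33 L5 against 37 L4 cells, and the second series holds L4 cells only. The layers are still not matched by date. Dates 1 and 2 of the first series hold no L5 cell, while date 1 holds 3 V1 L4 cells and date 2 holds 11 V1 L4 and 4 S1 L4 cells.

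Lypd6 was the member with the largest difference between layers. Its mean was 5.53 ± 4.05 in L5 (SD over 33 cells) and 1.84 ± 2.90 in L4 (SD over 37 cells), a difference of 3.68 ± 1.02 (SD over 4 dates). Chrna4 lay the other way, with 2.15 ± 3.34 in L5 and 4.45 ± 3.20 in L4, a difference of -2.31 ± 1.10 (SD over 4 dates). These were 2 of the 8 members past the size of 1, 1 in each direction, beside 20.6% of the 9993 genes that passed a filter of at least 32 counts in at least 10 cells. Chrna2, Chrna3 and Chrna5 did not pass this filter and the other 5 members did. Lypd6 ranked 4 from the top and Chrna4 36 from the bottom of the 9993 differences, whose median was 0.17.

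The start regions of these 2 members are shown because they are the genes with a layer difference past 1. Each run holds 250 bases before and 50 bases from a RefSeq transcript start (GRCm38.p6), written 5′ to 3′ on the gene's strand, and capitals mark the GC box GGGCGG and the CCAAT box on either strand. The Lypd6 region is chr2:50066179-50066478 on the plus strand and the Chrna4 region is chr2:181039128-181039427 on the minus strand. The Chrna4 region lies at a transcript start inside the gene and not at its outermost start.
Lypd6: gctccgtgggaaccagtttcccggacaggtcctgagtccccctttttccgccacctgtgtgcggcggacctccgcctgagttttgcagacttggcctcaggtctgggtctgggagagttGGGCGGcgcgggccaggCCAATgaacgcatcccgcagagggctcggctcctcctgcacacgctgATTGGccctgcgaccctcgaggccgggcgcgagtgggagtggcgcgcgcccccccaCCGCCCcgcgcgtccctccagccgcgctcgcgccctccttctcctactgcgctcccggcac
Chrna4: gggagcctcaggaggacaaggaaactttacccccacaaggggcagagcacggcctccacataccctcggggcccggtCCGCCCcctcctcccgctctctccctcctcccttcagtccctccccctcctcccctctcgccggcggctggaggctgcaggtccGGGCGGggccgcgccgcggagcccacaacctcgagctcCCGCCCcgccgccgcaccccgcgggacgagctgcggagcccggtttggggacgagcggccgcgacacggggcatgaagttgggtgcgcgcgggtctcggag
The Lypd6 region held 2 GC boxes and 2 CCAAT boxes, and the Chrna4 region held 3 GC boxes and 0 CCAAT boxes. The matches share 0 bases with each other. A GC box was found in 35.7% of the 32851 RefSeq start regions of this length, a CCAAT box in 37.4% and a TATAAA box, which neither gene had, in 13.6%. GC content was 71.0% for Lypd6 and 74.3% for Chrna4, where the median of all regions was 52.7%. Such matches are a description of letters and not of binding.

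Lypd6 lies on chromosome 2 from 50066429 to 50193569 on the plus strand (GRCm38, GENCODE M21). Its product binds nicotinic receptors and is also known as a Wnt co-receptor component. In V1 L4 the lowest level was 0, the median 0 and the highest 8.76, and in S1 L4 these were 0, 0 and 8.75. In V1 L5 they were 0, 4.74 and 9.96, and in S1 L5 they were 0, 8.18 and 9.54. Most L4 cells were at 0, and a level of at least 5 was reached in 8 of 17 V1 L5 cells and 12 of 16 S1 L5 cells. The ranges of all 4 groups overlapped. Reads were found in 10 of 42 V1 L4 cells (23.8%, exact 95% Clopper-Pearson interval 12.1 to 39.5), 10 of 34 S1 L4 cells (29.4%, 15.1 to 47.5), 10 of 17 V1 L5 cells (58.8%, 32.9 to 81.6) and 13 of 16 S1 L5 cells (81.2%, 54.4 to 96.0). These L4 shares hold cells of both series, while all L5 cells are of the first. With them, the intervals of L4 and L5 overlapped in V1 but not in S1. Within the first series, reads were found in 8 of 21 V1 L4 cells (38.1%, upper limit 61.6) and 5 of 16 S1 L4 cells (31.2%, upper limit 58.7). The intervals of L4 and L5 then overlapped in both areas, as the lower limits in L5 were 32.9 and 54.4. Intervals here and below cover counting error only.

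Among cells with a Lypd6 read the level also differed, with a median of 8.55 in the 23 L5 cells and 6.07 in the 13 L4 cells of the first series. A level of at least 5 was reached in 20 of 33 L5 cells and in 8 of 37 L4 cells. The pooled level was 337 CPM in L5 (exact Poisson interval 332 to 343) and 31.3 CPM in L4 of the first series (29.7 to 32.9). Reads were amplified without molecular identifiers, so these narrow intervals do not cover the spread between cells.

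The Lypd6 difference was positive on each date that had both layers, at 5.41 on date 3, 3.27 on date 4, 3.23 on date 5 and 3.96 on date 6. The mean within dates was 3.97. Some dates rest on few L4 cells, with 1 V1 and 1 S1 cell on date 6 and 1 V1 and 3 S1 cells on date 4. It was 2.94 ± 1.95 within V1 (SD over 2 dates) and 4.45 ± 2.37 within S1 (SD over 3 dates). In both areas every date lay above 0, but the V1 dates held 2 and 3 V1 L4 cells, and date 5 held 2 S1 L4 cells. Over all genes passing the filter, 7.13% had a difference past 1 with the same sign on all 4 dates, and Lypd6 and Chrna4 were the 2 members among them.

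**Figure D1:**
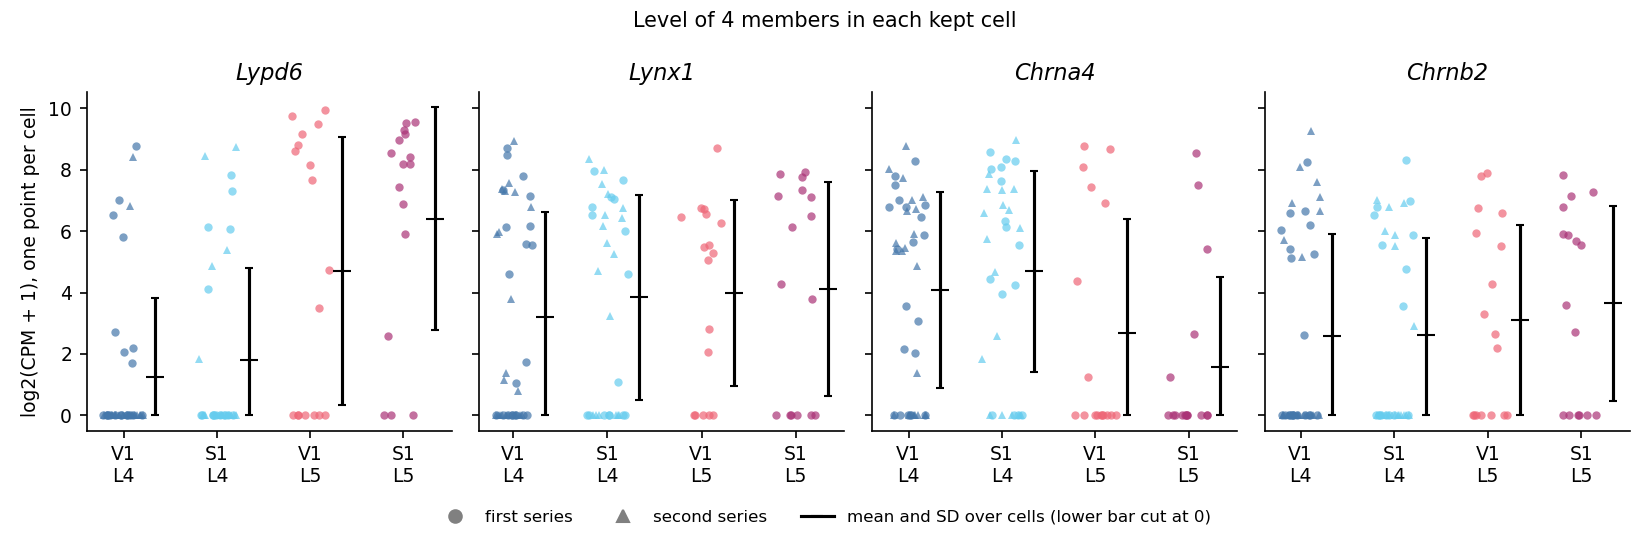
Level of Lypd6, Lynx1, Chrna4 and Chrnb2 in each kept cell, as log2(CPM + 1), by area and layer, with circles for the first series of dates, triangles for the second, and the mean and SD over cells in black. Each of these genes has points at 0 in every group, most L5 points of Lypd6 over both areas together lie above 7 and most L5 points of Chrna4 lie at 0.

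**Figure D2:**
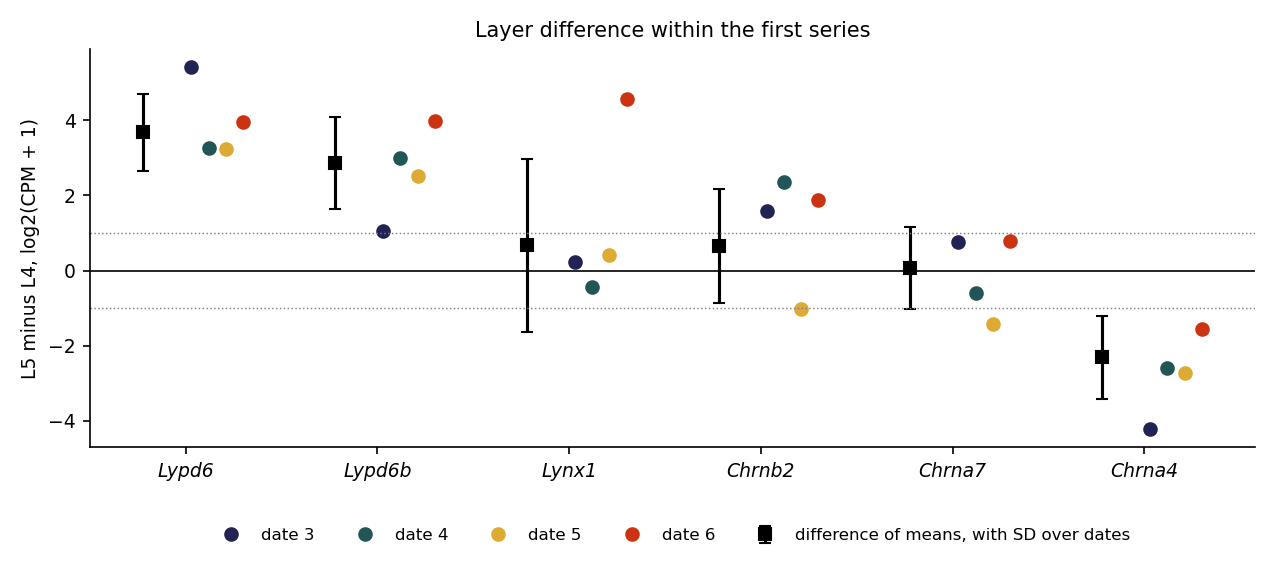
Difference L5 minus L4 in log2(CPM + 1) within the first series for 6 genes, as the difference of means with its SD over 4 dates (black squares) and on each date (coloured points), with dotted lines at the size of 1. All 4 dates lie above 0 for Lypd6 and Lypd6b and below 0 for Chrna4, and the dates of Lynx1, Chrnb2 and Chrna7 fall on both sides.

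Chrna4 lies on chromosome 2 from 181018380 to 181043546 on the minus strand, and the RefSeq start used above lies 4369 bases inside this span. The RefSeq models themselves reach to 181043579, so the outermost RefSeq start was not the one shown. It encodes the α4 subunit, a main ligand-binding subunit of the high-affinity receptors of cortex. The lowest, median and highest levels were 0, 5.40 and 8.77 in V1 L4 and 0, 5.92 and 8.96 in S1 L4. In V1 L5 they were 0, 0 and 8.78, and in S1 L5 they were 0, 0 and 8.55. The highest cells were alike in all 4 groups, and the groups differed in how many cells held reads. These were 29 of 42 cells in V1 L4 (69.0%, 52.9 to 82.4), 25 of 34 in S1 L4 (73.5%, 55.6 to 87.1), 7 of 17 in V1 L5 (41.2%, 18.4 to 67.1) and 5 of 16 in S1 L5 (31.2%, 11 to 58.7). The intervals of L4 and L5 overlapped in both areas, with L4 cells of both series and with those of the first series alone.

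Among cells with a Chrna4 read the areas went apart. In V1 the median was 7.43 in the 7 L5 cells and 6.46 in the 15 L4 cells of the first series, and in S1 it was 5.43 in the 5 L5 cells and 6.98 in the 12 L4 cells. Over both areas it was 7.18 in L5 and 6.46 in L4. The contrast between areas was not tested. The pooled Chrna4 level, in which a few high cells weigh most, was 71.5 CPM in L5 (68.9 to 74.2) and 95.4 CPM in L4 (92.5 to 98.2). Within V1 it was 111.1 CPM in L5 and 76.2 CPM in L4, and within S1 it was 32.1 CPM in L5 and 116.8 CPM in L4.

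The Chrna4 difference between layers was -4.21 on date 3, -2.60 on date 4, -2.71 on date 5 and -1.54 on date 6. The mean within dates was -2.77, and the cells on each date were the same as for Lypd6. On log2(RPKM + 1) the difference over all dates was -1.51. On the CPM scale it was -1.38 ± 2.20 within V1 (SD over 2 dates) and -3.39 ± 2.43 within S1 (SD over 3 dates), where the means within dates were -2.54 and -3.58. Both V1 dates and all 3 S1 dates lay below 0. Without date 5, the V1 difference was -0.84, under the size of 1, without date 2 it was -2.23, and on log2(RPKM + 1) it was -0.76. Within each area Lypd6 and Chrna4 were again the 2 members past 1, where 32.8% of genes in V1 and 30.8% in S1 were.

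Thinning every cell to 250000 reads, which left out 3 L5 cells with fewer, gave Lypd6 reads in 21 of 30 L5 cells (70.0%) and 10 of 37 L4 cells (27%). For Chrna4 it gave 11 of 30 L5 cells (36.7%) and 26 of 37 L4 cells (70.3%). At equal depth the order of the layers stood for both genes.

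Chrnb2 encodes the β2 subunit, the usual partner of α4, and lies on the minus strand of chromosome 3 from 89746195 to 89764632. The lowest, median and highest levels were 0, 0 and 9.26 in V1 L4 and 0, 0 and 8.31 in S1 L4. In V1 L5 they were 0, 2.65 and 7.88, and in S1 L5 they were 0, 4.57 and 7.82. All ranges overlapped. Reads were found in 40.5% of V1 L4, 44.1% of S1 L4, 58.8% of V1 L5 and 62.5% of S1 L5 cells, and the intervals of these shares overlapped too. The layer difference of 0.65 ± 1.52 was smaller than its spread over 4 dates, with 3 dates above 0 and 1 below, and it was 1.02 without date 5. The mean within dates was 1.20.

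Chrna7 encodes the α7 subunit, which forms receptors of high calcium permeability, and lies on chromosome 7 from 63098692 to 63212569 on the minus strand. Reads were found in 7 of 42 V1 L4, 6 of 34 S1 L4, 3 of 17 V1 L5 and 2 of 16 S1 L5 cells. The highest level was 6.65 and the median was 0 in every group. The layer difference was 0.06 ± 1.09 over 4 dates, 2 on each side of 0.

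The remaining α subunits were close to the limit of detection. Chrna2, on chromosome 14 from 66135039 to 66152948 on the plus strand, had 28 reads in 1 V1 L4 cell and 1 read in 1 S1 L4 cell. None of the 33 L5 cells had a Chrna2 read, and a count of 0 in 33 cells allows a share of up to 9.09% of cells with a read. Chrna3 had 3 reads in 1 S1 L4 cell and 9 reads in 1 S1 L5 cell. Chrna5 had 26 reads and 1 read in 2 S1 L5 cells and was at 0 in every other kept cell.

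The S1 L5 cell with 9 Chrna3 reads was also the cell with 26 Chrna5 reads, and it held 308 Chrna4 and 90 Chrnb2 reads with 0 reads of Lypd6, Lypd6b, Lynx1 and Chrna7. Chrna5 and Chrna3 are neighbours on chromosome 9, at 54980880 to 55007779 on the plus strand and 55010111 to 55026562 on the minus strand. In the RefSeq models their ends overlap by 1304 bases, and the libraries do not keep the strand, so reads in that stretch cannot be told apart. Chrnb4, which lies in the same gene cluster, had 3 reads in 2 kept cells.

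Lynx1 encodes a membrane-anchored protein that binds α4β2 and α7 receptors and lowers their response to acetylcholine. It lies on chromosome 15 from 74747852 to 74753046 on the minus strand, 1158 bases from Slurp2, another Ly6 gene whose level was not analysed here. The lowest, median and highest Lynx1 levels were 0, 1.25 and 8.92 in V1 L4 and 0, 4.98 and 8.34 in S1 L4. In V1 L5 they were 0, 5.30 and 8.70, and in S1 L5 they were 0, 5.22 and 7.94. The groups overlapped over almost their whole range. Reads were found in 57.1% of V1 L4, 61.8% of S1 L4, 70.6% of V1 L5 and 62.5% of S1 L5 cells.

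The Lynx1 layer difference of 0.67 ± 2.29 was smaller than its spread. The mean within dates was 1.20, and date 6, with 1 V1 and 1 S1 cell in L4, gave 4.58. Lynx1 followed the depth of the cell more than the other members did. Its level had a Pearson r of 0.52 with the log10 total count over the kept cells, against 0.07 for Lypd6 and 0.21 for Chrna4. Within L5 alone these values were 0.66, 0.35 and 0.15, and within L4 alone 0.50, 0.02 and 0.19, so Lypd6 also followed depth within L5. All are a description over cells that share dates and preparation.

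**Figure D3:**
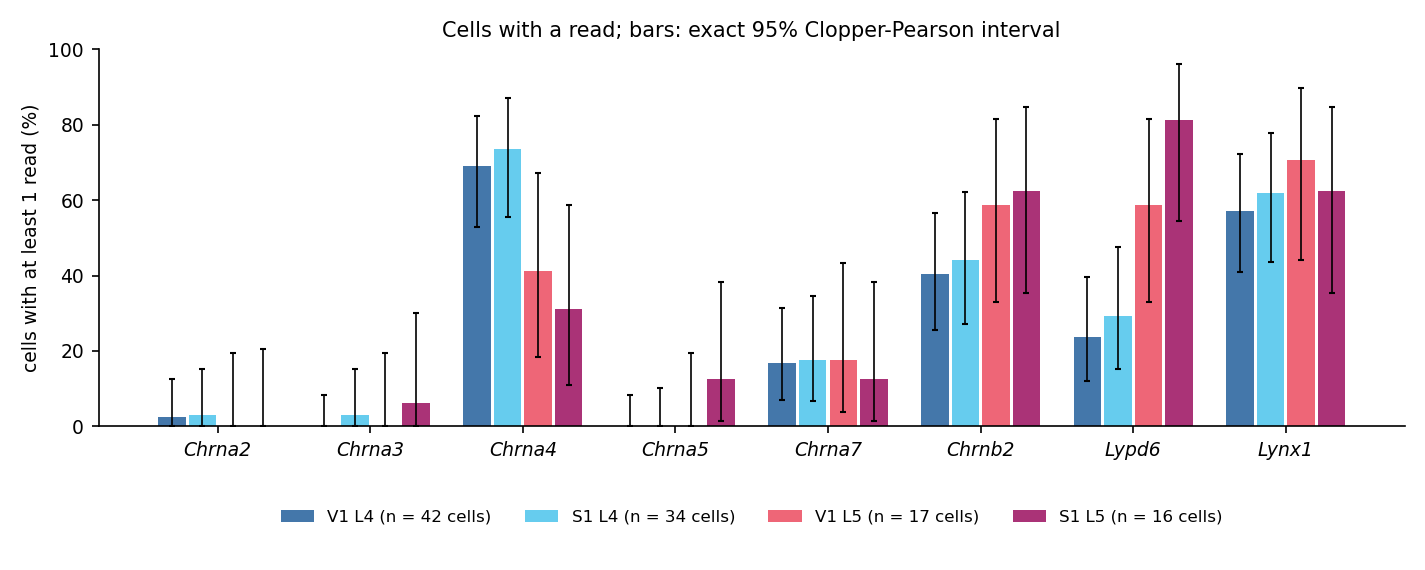
Share of cells with at least 1 read of each of the 8 members in percent, by area and layer, with exact 95% Clopper-Pearson intervals as error bars. L4 bars hold cells of both series and L5 bars cells of the first series alone, so these bars are not matched by series. Chrna4 bars are taller in L4 (69.0% and 73.5%) than in L5 (41.2% and 31.2%). Lypd6 bars are taller in L5 (58.8% and 81.2%) than in L4 (23.8% and 29.4%). In L4 of the first series alone, Lypd6 was read in 38.1% of V1 and 31.2% of S1 cells. Chrna2, Chrna3 and Chrna5 were found in at most 2 cells of any group.

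Levels of different genes can be set side by side only per length, in the deposited RPKM (reads per kilobase of transcript, scaled to the reads of the cell). Over the 33 L5 cells the mean RPKM was 82.7 ± 88.5 for Lypd6, 18.7 ± 25.1 for Lynx1, 14.2 ± 29.5 for Chrna4, 9.57 ± 13.6 for Chrnb2 and 2.51 ± 9.53 for Chrna7 (SD over cells). Over the 37 L4 cells of the first series it was 21.2 ± 26.9 for Chrna4, 17.3 ± 25.9 for Lynx1, 9.57 ± 23.5 for Lypd6, 7.62 ± 13.6 for Chrnb2 and 1.20 ± 4.19 for Chrna7. Lypd6 stood first of these 5 genes in L5 and after Chrna4 and Lynx1 in L4. Each pair of neighbours in both orders differed by less than the larger of their SDs over cells. Over all kept cells Chrna5, Chrna2 and Chrna3 had mean values of 0.117, 0.0654 and 0.0539.

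Between areas in L4, the comparison for which the study sequenced these cells, none of the 8 members differed by 1 or more, where 14.9% of the genes passing the filter did. Chrna4 was 0.62 ± 1.75 higher in S1 than in V1 (SD over 5 dates), Lynx1 0.64 ± 0.72 and Lypd6 0.55 ± 1.07. By date, Chrna4 was higher in S1 on 2 dates, with 3.43 on date 3, and lower on 3. Lynx1 was higher on 4 dates and lower on 1. Lypd6 was higher in S1 on all 5 dates, by between 0.16 and 2.68. The Chrnb2 difference was 0.04 ± 3.06 and that of Chrna7 was -0.16 ± 1.45. With the series apart, the Lynx1 difference was 0.08 in the first and 1.16 in the second, and the Lypd6 difference 0.22 and 0.90.

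In L5, Lypd6 was higher in S1 by 1.72 ± 2.26 and Chrna4 lower by a difference of -1.09 ± 2.4 (SD over 4 dates). These 2 of 8 members were past 1, beside 30.6% of genes, and both differences were smaller than their spread. Lypd6 was higher in S1 on 3 dates and lower on 1, at -1.56, and its difference was 1.09 among cells with at least 3000 detected genes. Chrna4 was lower on 3 dates and higher on 1, at 1.71, and its difference was -0.43 without date 4, -0.75 without date 6 and -2.27 without date 5. Chrnb2 (0.53 ± 2.19, and 1.32 without date 3), Lynx1 (0.13 ± 2.29) and Chrna7 (-0.09 ± 1.58) were within 1.

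Lypd6 and Chrna4 were also read together, cell by cell. In L5, 16 of 33 cells had reads of Lypd6 and not Chrna4, 5 had Chrna4 and not Lypd6, 7 had both and 5 had neither. In L4 of the first series, 16 of 37 cells had Chrna4 and not Lypd6, 2 had Lypd6 and not Chrna4, 11 had both and 8 had neither. At a level of at least 5, Lypd6 was alone in 18 L5 cells, Chrna4 was alone in 6 and both were high in 2. In L4 the same counts were 4, 16 and 4. Pearson r between both levels was -0.36 over the 33 L5 cells, 0.08 over the 37 L4 cells and -0.30 over all kept cells of both series. These cells share dates and preparation.

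**Figure D4:**
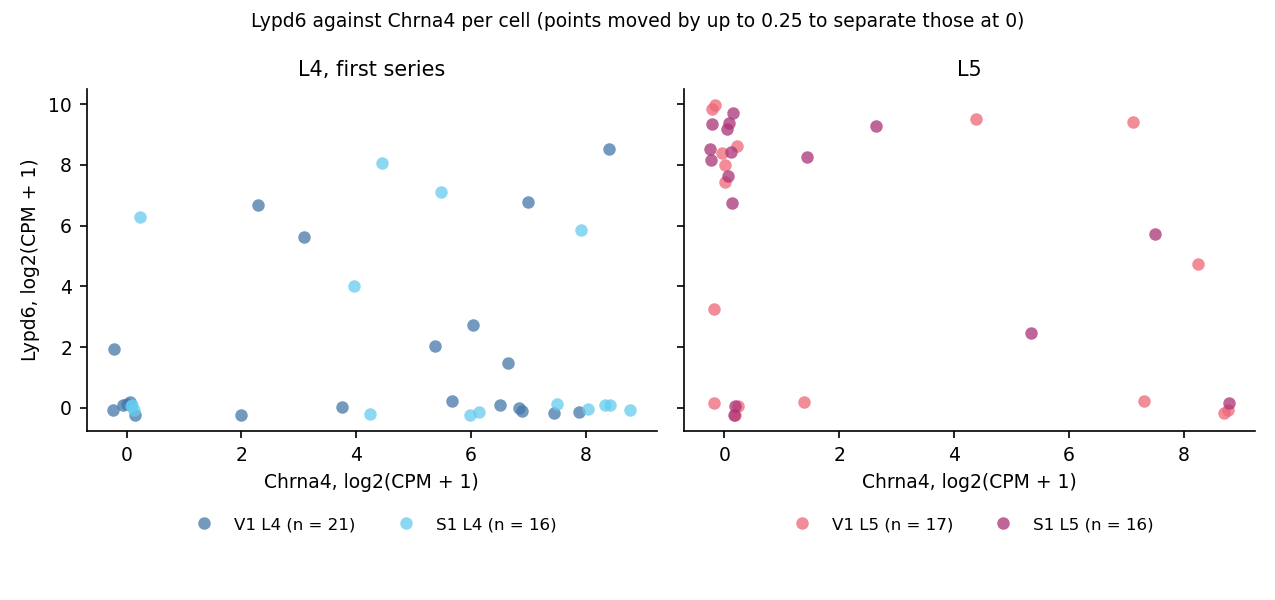
Lypd6 level against Chrna4 level in each cell of the first series, both as log2(CPM + 1), in L4 (37 cells) and L5 (33 cells), with V1 and S1 in separate colours and points moved by up to 0.25. Of the L5 cells, 16 lie along the Lypd6 axis with no Chrna4 read, and 16 L4 cells lie along the Chrna4 axis with no Lypd6 read.

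The subunits that build the α4β2 receptor were found together in part of the cells. Chrna4 and Chrnb2 reads were both present in 37 of the kept cells, Chrna4 alone in 29 and Chrnb2 alone in 15. In L5, 10 of the 12 cells with Chrna4 also had Chrnb2, where 20 of all 33 L5 cells had it. In L4 of the first series 14 of 27 did, where 17 of all 37 cells had Chrnb2, and in L4 of both series 27 of 54 did. Whether the layers differ in this pairing was not tested. An L5 cell had reads of 0 to 5 of the 8 members with a median of 3, and an L4 cell of the first series 0 to 5 with a median of 2. No read of any α subunit member was found in 20 of 33 L5 cells and in 8 of 37 L4 cells.

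The closest relative of Lypd6 in this family, Lypd6b, had a layer difference in the same direction. Lypd6b lies upstream of Lypd6 on the same strand of chromosome 2, from 49787688 to 49948849, with 117579 bases between the genes, and its product also binds nicotinic receptors. It was higher in L5 by 2.86 ± 1.22 (SD over 4 dates, all above 0), at 4.92 ± 3.72 in L5 and 2.05 ± 3.15 in L4. The difference was 4.19 within V1 and 1.11 within S1, and the contrast of these 2 values was not tested. In L4, Lypd6b was higher in S1 than in V1 by 1.87 ± 2.23, by 3.19 in the first series and 0.67 in the second.

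Lypd6 and Lypd6b reads were found together in 28 of the kept cells, with r of 0.47 between their levels, the seventh highest of 9992 genes with Lypd6. Within L5 the r was 0.34 and within all L4 cells 0.31. At least 1 of the pair was read in 28 of 33 L5 cells and in 20 of 37 L4 cells.

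The genes whose levels were most like that of Lypd6 over the kept cells were Spon1 (r 0.54), which encodes an extracellular matrix protein, Unc5d (0.53), a netrin receptor, St6galnac5 (0.52), a sialyltransferase, Kcnip4 (0.50), a potassium channel partner, and Egln3 (0.48), an oxygen-sensing hydroxylase. Within L5 alone these values were 0.50, 0.45, 0.46, 0.55 and 0.32, and within L4 alone 0.12, 0.34, 0.13, 0.13 and 0.34. Among the 29 genes used to name Sst types in a reference atlas, the 3 most like Lypd6 were Crh (0.41), Fam114a1 (0.31) and Crhr2 (0.30), which were at 0.28, 0.33 and 0.29 within L5 and at -0.11, 0.04 and -0.09 within L4. Crh itself was 3.75 ± 1.97 higher in L5. For Chrna2 the closest genes were Zcchc10 (0.36), Gpr125 (0.33), Nt5c1a (0.33), Slc25a13 (0.32) and Gm14446 (0.32), and of the type names Calb2 (0.20), Pdlim5 (0.19) and Cbln4 (0.13), but these rest on the 2 cells with a Chrna2 read.

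The other nicotinic subunits gave few reads. Of 10 genes, 7 had a read in a kept cell and 0 passed the filter, so none is among the genes counted past 1. Chrnb1, a subunit of the muscle receptor, was found in 27 cells with 588 reads in all, and its layer difference was -0.32 ± 0.54. Chrna6, Chrnd and Chrng had no read in any kept cell.

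Of 21 other Ly6 family genes in the table, 11 had a read and 3 passed the filter, of which Lypd6b alone was past 1 between layers. Ly6h, a brain Ly6 protein that limits receptor transport to the surface, was read in all but 4 of the kept cells, with a layer difference of -0.08 ± 1.67. Ly6e was read in 87 cells with a difference of 0.38 ± 1.86. Neither was past 1 between areas.

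Among 7 genes listed for receptor assembly and transport, 6 passed the filter, and 2 of these 6 were past 1 between layers, both higher in L5. Of all genes, 20.6% were past 1 and 14.4% were higher by that size. The list also held Lrrtm1, a synaptic adhesion protein and 1 of these 2, so the count is not of assembly genes alone. Vsnl1, a calcium sensor that binds α4β2 receptors, had a difference of 1.09 ± 0.58 with all 4 dates above 0, but the mean within dates was 0.61, under 1. It was 1.76 ± 3.82 within V1 and 0.27 ± 1.90 within S1. Lrrtm1 was at 1.56 ± 3.59, with 2 dates on each side. The chaperones Ric3 and Tmem35 (NACHO), which help α7 and other receptors to form, were read in 78 and 77 cells and were at 0.41 ± 1.61 and 0.04 ± 3.71. Ywhah was at 0.86 ± 0.72 and Nsf at 0.38 ± 1.35.

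Tmem35 was the assembly gene that differed most between areas in L5, lower in S1 by a difference of -2.52 ± 2.04 and below 0 on all 4 dates. In L4, Nsf was higher in S1 by 1.63 ± 1.31, on 4 of 5 dates. The Lrrtm1 difference in L4 was 2.30 ± 2.92, with 2 dates above 0 and 3 below, and its mean within dates was 0.64. The synthesis, vesicle loading and uptake of acetylcholine need Chat, Slc18a3 and Slc5a7, and these had no read in any kept cell. Ache, the enzyme that breaks acetylcholine down, was read in all but 6 cells and was higher in S1 L4 than in V1 L4 by 1.36 ± 2.41, with 3 dates above 0 and 2 below. Its layer difference was 0.33 ± 1.44.

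**Figure D5:**
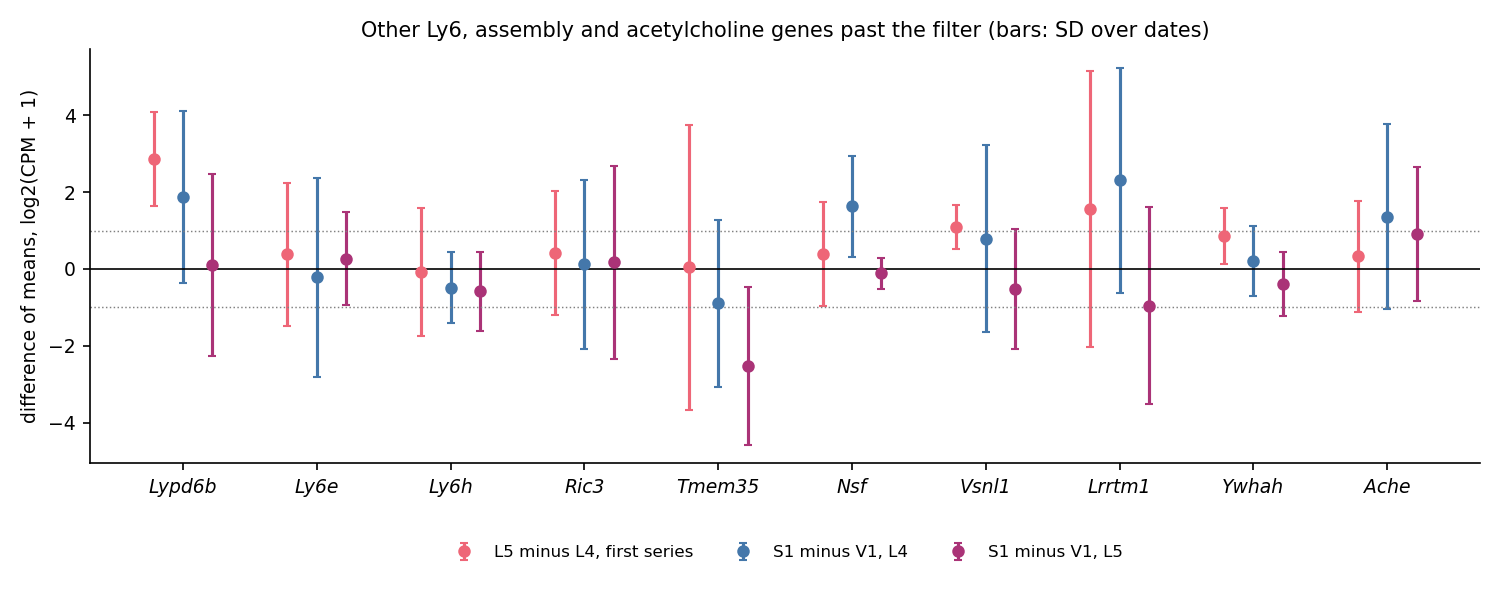
Difference of mean log2(CPM + 1) for the 10 genes of the other Ly6, assembly and acetylcholine lists that passed the filter, between layers (first series) and between areas in L4 and in L5, with the SD over dates as bars and dotted lines at the size of 1. The layer difference of Lypd6b lies past 1 by more than its bar, that of Vsnl1 lies near 1 (1.09, and 0.61 as the mean within dates), and Tmem35 in L5 lies at -2.52.

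All 8 SOM interneuron markers had reads in every group. Their summed level ranged from 1763 to 9397 CPM in L4 of the first series and from 1973 to 16002 CPM in L5. Of these markers, Sox6 (-2.32 ± 0.55) and Elfn1 (-2.03 ± 2.32) were lower in L5, while Sst (-0.47 ± 0.57) and Gad1 (0.07 ± 0.47) were within 1. Reads of markers of other cells were also found, and their part in the member differences was not tested. The highest astrocyte marker sum in L4 (10579 CPM) lay above the highest SOM marker sum in L4 (9397 CPM) and below that in L5 (16002 CPM). From L4 to L5 of the first series, the pooled level of 8 astrocyte markers was 506 and 186 CPM (0 to 10579 and 0 to 2150 per cell), of 8 oligodendrocyte markers 376 and 487 CPM (0 to 4922 and 0 to 5612), of 8 microglia markers 324 and 414 CPM (0 to 2187 and 0 to 3791) and of 8 excitatory neuron markers 73.7 and 68.9 CPM (0 to 698 and 0 to 771). Each of these 4 lists had reads of all its genes in both layers, except for Slc17a6, which was at 0 in L4. The 8 vascular markers were at 6.91 and 2.79 CPM (0 to 138.9 and 0 to 28.9), with Cldn5, Rgs5 and Ly6c1 at 0 in both layers, and 8 markers of other interneurons were at 81.7 and 94.6 CPM (0 to 888 and 0 to 613), with Sncg at 0 in both.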

How the data were processed

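Single-cell RNA was measured by a Smart-seq2-based Patch-seq protocol without molecular identifiers, with single-end reads. Per the submitters' processing notes, reads were demultiplexed with bcl2fastq 2.20 and aligned to mm10 with STAR 2.4.2a. The authors deposited raw read counts per gene, without normalization, and RPKM values from rpkmforgenes with RefSeq models. Entries sharing a symbol (279 of 23998) were summed. The counts were used for every result except levels between genes.

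Groups were taken from the labels, and the date in a label was taken as the recording day. Dates are numbered 1 to 9 in time order. Left out were 4 cells with fewer than 1500 genes, 4 cells without an Sst read and 1 cell with more Slc17a7 than Gad1 plus Gad2 reads. Cells are not replicates of a condition and no animal is named, so no p-value or standard error was computed. Differences are of means of log2(CPM + 1), pseudocount 1, S1 minus V1 or L5 minus L4. A gene passed the filter with at least 32 counts in at least 10 kept cells. Shares have exact Clopper-Pearson and pooled counts exact Poisson intervals at 95%. For a count of 0, the upper limit was set at 3 counts. Depth was equalised by drawing 250000 reads from each cell without replacement (seed 1).

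The members and lists were chosen with earlier results of these data known. Named genes are the 8 members, genes of the other nicotinic, Ly6, assembly and acetylcholine lists that passed the filter or were read in at least 10 cells, the 5 genes and the 3 Sst type name genes with the highest Pearson r to Lypd6 and to Chrna2, and the genes singled out at 0 or among the markers, chosen after their values were seen. The code for the differences was checked on simulated counts with known differences. Coordinates are from GENCODE M21 (GRCm38) and start regions from RefSeq (GRCm38.p6), in which 6 of 8 members matched. Alternatives changed the scaling, pseudocount, filters, depth, dates and series. TMM factors came from edgeR 4.0.16 in R 4.3.3, intervals from SciPy 1.17.1, plots from matplotlib 3.10.9, and the rest from pandas 2.3.3 and NumPy 2.4.6 under Python 3.11.15. Electrophysiology and morphology were not analysed here.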

Additional observations from a re-analysis of the deposited data

Results flagged for a closer look

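Cells that entered no comparison held reads of several members above the limit of 3 counts. In the 4 S1 L4 cells with at least 1500 genes but without an Sst read, Lynx1 was at 162.5 CPM pooled (reads in 4 of 4 cells), Chrnb2 at 158.7 CPM (2 of 4) and Chrna7 at 6.17 CPM (1 of 4). Chrna4 and Lypd6 had 0 reads in all 4, while Lypd6b had reads in 3. In the 1 cell of V1 L5 with more Slc17a7 than Gad1 plus Gad2 reads, Chrna4 was at 536 CPM, Lypd6 at 251 CPM, Lynx1 at 161.9 CPM and Chrnb2 at 61.9 CPM. Among 27 pairs of differences (layer in V1 against S1, area in L4 against L5, and area in L4 by series, for the 8 members and Lypd6b), none had all dates on opposite sides of 0. Groups held more than 10 cells, so single cells were not screened as outliers.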

How the results depend on the processing

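No paired analysis was possible because replicate numbers only name cells, so they pair nothing, and label dates were used instead, as the mean of differences within dates. The Lypd6 and Chrna4 layer differences kept their signs under all 20 alternatives, from 2.43 to 4.86 and from -3.54 to -1.13. The extremes came from the pseudocount, at 4.86 and -3.54 with 0.1 and 2.43 and -1.13 with 10. Leaving out 1 date gave 3.16 to 4.08 and -3.13 to -1.73. No alternative reversed a difference past 1. The shares of cells with a read moved within their intervals.

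The number of members past 1 between layers was 2 as reported and 4 with a pseudocount of 0.1, with thinning and with differences averaged within dates, where Chrnb2 and Lynx1 joined. In V1 it was 4 with these 3 settings, with at least 3000 detected genes and with dates holding both layers, again with Chrnb2 and Lynx1 except within dates, where Chrnb2 and Chrna2 (-1.14, with reads in 1 cell) joined, and 1 with RPKM and with a pseudocount of 10. It was 1 in L4 between areas within dates (Lypd6, 1.04) and in the second series (Lynx1, 1.16). In L5 between areas it was 1 with RPKM, with a pseudocount of 10, without date 4 and without date 6. Leaving out 1 date gave 2 to 3 members between layers, in V1 and in S1, 0 in L4 and 1 to 3 in L5 between areas.

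The percentage of genes past 1 moved most with the pseudocount. With 0.1 it was 38.6% between layers, 50.6% in V1, 48.7% in S1, 31.2% between areas in L4 and 48.7% in L5, and with 10 it was 3.8%, 9.96%, 8.6%, 2.13% and 7.05%. Without the filter it was 12%, 19.6%, 18.5%, 8.59% and 18.4%. With RPKM it was 12.6% between layers, 7.76% between areas in L4 and 20% in L5. Differences within dates gave 51.2% in V1 between layers and 26.8% between areas in L4, and the first and second series alone 27.8% and 28.2%. Leaving out 1 date gave 20.6% to 26.9% between layers, 32.8% to 39.2% in V1, 30.8% to 38.9% in S1, 15.6% to 20% in L4 and 30.6% to 36.8% in L5. A cell of median depth shows 3 counts as 2.50 to 2.95 CPM, so a lower level in such a cell rests on fewer than 3 counts, although the shares take 1 read as enough. Fewer cells that make a gene and failed capture of its RNA cannot be told apart by shares of cells with a read.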

Other observations

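Within L4, the first and second series gave Chrna4 means of 4.06 and 4.09 in V1 and of 4.97 and 4.44 in S1. Lypd6 means were 1.75 and 0.73 in V1 L4 and 1.97 and 1.63 in S1 L4 in the same order, and no L4 mean of Lypd6 in either series reached the V1 L5 mean of 4.70. Lypd6b was read in 9 of 16 S1 L4 cells of the first series (56.2%, exact 95% Clopper-Pearson interval 29.9 to 80.2) and in 4 of 21 V1 L4 cells (19%, 5.45 to 41.9), where Lypd6 was read in 5 and 8 cells. In the second series Lypd6b and Lypd6 were each read in 5 of 18 S1 L4 cells, and in 3 and 2 of 21 V1 L4 cells. These shares were not compared by a test.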
